A study of Mus musculus with 6 samples.

Results

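Of the 19124 gene symbols in the deposited table, 67 belong to the ADAM, ADAMTS, ADAMTS-like, MMP and TIMP families. They were chosen by name: symbols that begin with Adam, Adamts, Adamtsl, Mmp or Timp followed by a digit, with the longest entry kept for each symbol. These are 22 ADAM, 19 ADAMTS, 5 ADAMTS-like, 17 MMP and 4 TIMP genes. Their RNA was measured in CD31-sorted cells of retinas from 6 C57BL/6 pups at postnatal day 7. In the 3 KO pups the genotype was Pdgf{beta}CreERT2pos Rnf20p/p, and in the 3 Ctrl pups it was Pdgf{beta}CreERT2neg Rnf20p/p. Both groups carried the Rnf20p/p alleles and both received 75 µg of 4-hydroxytamoxifen on each of postnatal days 1 to 4. CreERT2 is a recombinase that tamoxifen switches on, and the Pdgfb driver restricts it largely to endothelium. A group with the recombinase and without the Rnf20p/p alleles was not analysed here.

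ADAM proteins are membrane-anchored proteases that shed the outer parts of other surface proteins, among them Notch receptors, growth factor precursors and junction proteins. ADAMTS enzymes are secreted and cut matrix proteoglycans, procollagens and von Willebrand factor, while ADAMTS-like proteins lack the protease domain. MMPs degrade collagens, laminins and other matrix, and TIMPs are their secreted inhibitors, some of which also block ADAM and ADAMTS enzymes. In sprouting retinal vessels these families are known for opening the basement membrane ahead of the tip cell and for the shedding step that activates Notch.

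The libraries held 14581701 to 30692948 counts. Rnf20, the targeted gene, was at 39.1, 31.0 and 31.7 CPM (the count scaled for library depth) in KO 1, 2 and 3, against 47.9, 57.1 and 56.8 CPM in Ctrl 1, 2 and 3, and did not pass the test (edgeR adjusted p = 0.101). The groups also differed in sex. The X-inactivation RNA Xist was at 0.0343 to 4.42 CPM in KO libraries and at 108 to 209 CPM in Ctrl libraries, and the Y-linked Eif2s3y was at 20.0 to 109 CPM in KO libraries and at 0.0413 to 0.0683 CPM in Ctrl libraries. All 3 KO libraries thus read as male and all 3 Ctrl libraries as female, so genotype and sex cannot be told apart in any result below. The 15 endothelial markers averaged 8.91, 9.04 and 8.59 log2(CPM + 0.5) in KO 1, 2 and 3 and 7.24, 7.80 and 7.85 in Ctrl 1, 2 and 3. Summed, they ranged from 11428 to 15631 CPM in KO and from 3708 to 5657 CPM in Ctrl, and 10 of the 15 rose and 0 fell. The 14 photoreceptor markers averaged 7.25 to 9.47 in KO and 9.32 to 9.92 in Ctrl, so RNA of other retinal cells was present in all sorts. Their part in the differences between groups was not tested, and in such bulk libraries fewer cells of a type and less RNA per cell cannot be told apart.

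**Figure D1:**
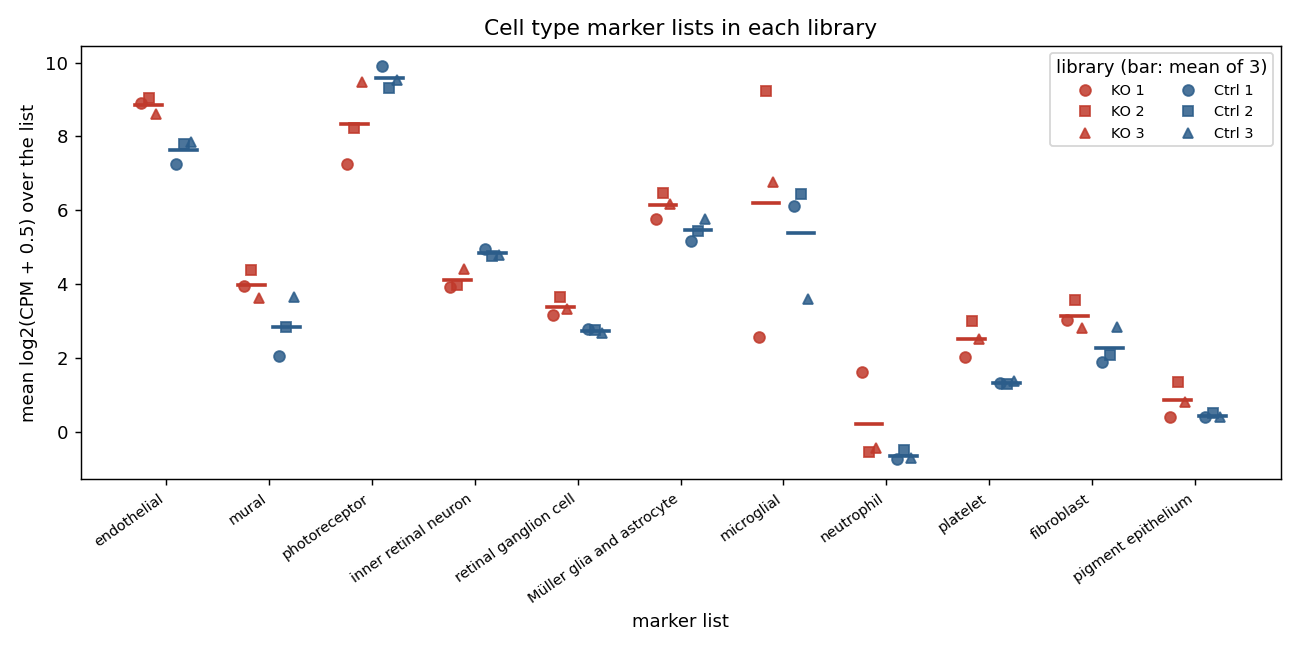
Mean log2(CPM + 0.5) of 11 cell type marker lists (x axis) in each library, with KO in red left of Ctrl in blue and a bar for the mean of 3 libraries. Endothelial markers were higher in each KO library, while microglial markers spread from 2.57 to 9.22 within KO.

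Of the 67 genes, 51 passed the filter on low counts and were tested, and 9 of these passed the threshold of an adjusted p of 0.05. The 6 that rose in KO were the inhibitors Timp1 and Timp4, the sheddase Adam15, the matrix proteases Mmp15 and Mmp28, and Adamts6. The 3 that fell were Adam9, Adam22 and Adamts3. The higher genes are 11.8% of those tested, where 5.85% of all 16217 tested genes were higher, and the lower genes are 5.88%, where 4.44% of all were lower. The groups did not overlap in 20 of the 51. Every KO library lay above every Ctrl library in 14 of them (27.5%, against 19.0% of all genes) and below in 6 (11.8%, against 18.9%). The median log2 fold change was 0.39 over the 51 genes and 0.03 over all tested genes. By DESeq2, another test on the same counts, 13 of the families were higher and 3 lower, where 12.6% and 9.49% of all genes were.

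**Figure D2:**
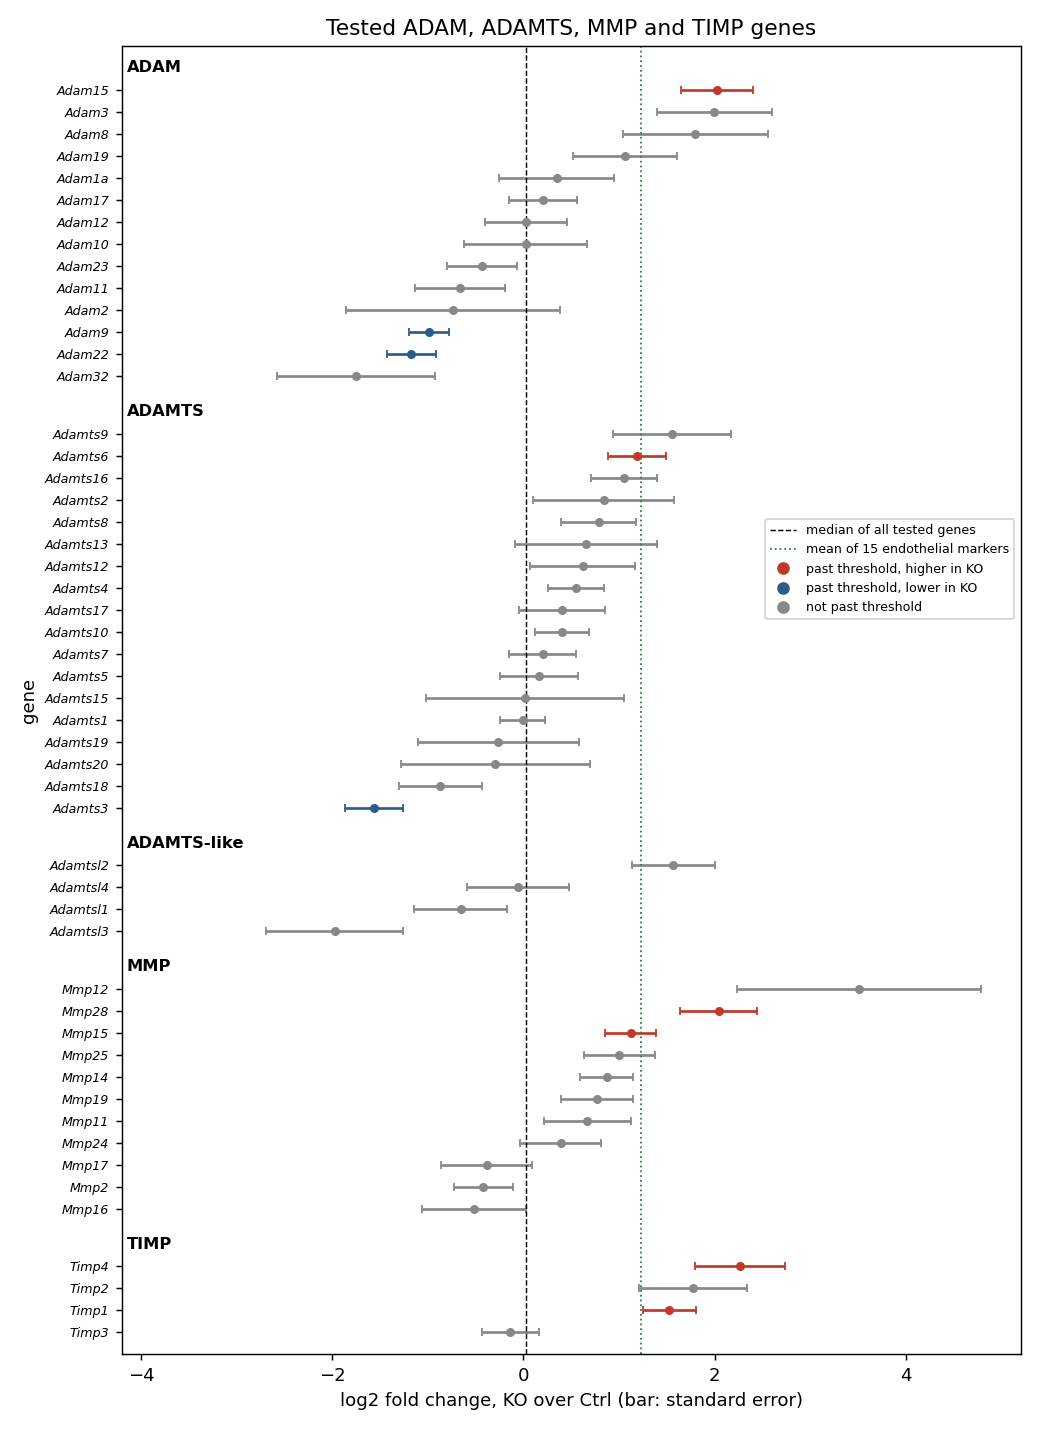
KO against Ctrl: log2 fold changes (x axis, bars give the standard error) for the 51 tested genes, by family (y axis). Red genes rose and blue genes fell past the threshold, grey genes did not pass it. The dashed line is the median of all tested genes (0.03) and the dotted line the mean of the 15 endothelial markers (1.23).

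Among the TIMP inhibitors, Timp1 and Timp4 rose and Timp2 and Timp3 did not pass the test. Timp1, an inducible inhibitor of most MMPs (NM_011593, chromosome X, 20870166 to 20874737, GRCm38.p6), was at 28.8, 21.5 and 25.1 CPM in KO 1, 2 and 3, against 8.82, 9.28 and 8.08 CPM in Ctrl 1, 2 and 3. The KO libraries all lay above the Ctrl libraries, which lay close to each other. The mean was 25.1 ± 3.65 CPM in KO and 8.73 ± 0.606 CPM in Ctrl (SD, n = 3 each), 2.88-fold higher, with a log2 fold change of 1.53 (SE 0.276, edgeR adjusted p = 0.0231). Timp1 is the only one of the 67 genes on the X chromosome, and it lies inside the span of Syn1, a synaptic gene whose own entry was at 29.3 to 40.1 CPM in KO and 29.1 to 29.7 CPM in Ctrl. With libraries scaled to equal endothelial markers its log2 fold change was 0.29 and did not pass (edgeR adjusted p = 0.581).

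Timp4, the TIMP with the narrowest tissue range (NM_001356406, chromosome 6, 115244444 to 115252205), was at 9.53, 13.7 and 13.3 CPM in KO 1, 2 and 3, against 1.85, 1.57 and 4.24 CPM in Ctrl 1, 2 and 3. Each KO library lay above each Ctrl library, from 38 to 387 counts a library. The mean was 12.2 ± 2.30 CPM in KO and 2.55 ± 1.47 CPM in Ctrl, a log2 fold change of 2.27 (SE 0.475, edgeR adjusted p = 0.0294), the highest value among the 9 genes that passed. Timp4 lies inside Syn2, and the 2 entries moved together: Syn2 was at 11.8, 19.5 and 16.9 CPM in KO and at 2.19, 3.30 and 6.65 CPM in Ctrl. In all 18 comparisons of a library's Timp1, Timp4 or Timp3 count with that of Syn1, Syn2 or Syn3, the surrounding Syn entry had at least as many counts. Whether reads were counted by strand is not given in the sources used here, so reads of such a pair cannot be told apart.

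Timp3, the inhibitor that binds to matrix and also blocks VEGF receptor signalling, was at 203, 132 and 115 CPM in KO 1, 2 and 3 and at 202, 127 and 165 CPM in Ctrl 1, 2 and 3. The groups overlapped, with a log2 fold change of −0.14 (SE 0.302, edgeR adjusted p = 0.793), which was 0.09 with GC offsets. Timp2, which takes part in the activation of Mmp2 at the cell surface, was at 45.2, 85.5 and 17.1 CPM in KO and at 21.0, 11.7 and 10.4 CPM in Ctrl. KO 3 lay among the Ctrl libraries, and the log2 fold change of 1.77 (SE 0.569) did not pass the test (edgeR adjusted p = 0.0808). It passed by DESeq2 (adjusted p = 0.0107), and without KO 3 it passed at 2.24 (edgeR adjusted p = 0.046). KO 2, with the highest Timp2, also had the highest microglial markers, at 9.22 log2(CPM + 0.5) against 2.57 and 6.77 in KO 1 and 3 and 3.60 to 6.44 in Ctrl. The other KO libraries did not follow this order. KO 1 had the lowest microglial markers of all libraries, and its Timp2 lay above every Ctrl library. KO 3 had higher microglial markers than any Ctrl library, and its Timp2 lay among them. The part of microglia in Timp2 was not tested.

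The promoters of the 4 genes with the highest log2 fold change among those past the threshold, and of the gene with the lowest, are printed to set genes that moved beside each other. RefSeq sequences of GRCm38.p6 were found for 40 of the 67 genes, and for 7 of these 9 (not Adam9 and Adamts6). Each runs from 250 bases before the start to 50 after it, 5′ to 3′ on the gene's strand, and the start used for Adamts3 lies within its span given below. Capitals mark matches on either strand to motifs classically studied in MMP and TIMP promoters: AP-1 (TGANTCA), an AP-1 variant (TGAGTAA), ETS (AGGAAG), the GC box (GGGCGG) and the start-site box TATAAA.
Timp1 (chrX:20869916-20870215, plus strand): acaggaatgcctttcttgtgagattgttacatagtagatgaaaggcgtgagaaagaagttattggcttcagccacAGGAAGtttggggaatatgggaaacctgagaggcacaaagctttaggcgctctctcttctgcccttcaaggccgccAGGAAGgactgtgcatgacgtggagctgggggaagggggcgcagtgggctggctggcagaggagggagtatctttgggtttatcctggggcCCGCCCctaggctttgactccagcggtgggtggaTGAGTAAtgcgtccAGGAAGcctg
Timp4 (chr6:115252156-115252455, minus strand): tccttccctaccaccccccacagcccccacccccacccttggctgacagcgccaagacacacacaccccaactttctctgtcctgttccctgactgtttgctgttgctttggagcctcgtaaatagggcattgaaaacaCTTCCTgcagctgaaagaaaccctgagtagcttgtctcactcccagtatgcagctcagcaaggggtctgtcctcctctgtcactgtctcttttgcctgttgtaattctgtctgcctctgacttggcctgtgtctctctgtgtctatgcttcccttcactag
Mmp28 (chr11:83462991-83463290, minus strand): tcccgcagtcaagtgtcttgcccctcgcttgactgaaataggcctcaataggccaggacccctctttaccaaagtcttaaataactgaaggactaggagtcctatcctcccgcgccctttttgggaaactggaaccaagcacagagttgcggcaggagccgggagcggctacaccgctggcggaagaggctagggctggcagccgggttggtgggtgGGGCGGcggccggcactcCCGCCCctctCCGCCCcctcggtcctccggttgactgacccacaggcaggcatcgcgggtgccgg
Adam15 (chr3:89349979-89350278, minus strand): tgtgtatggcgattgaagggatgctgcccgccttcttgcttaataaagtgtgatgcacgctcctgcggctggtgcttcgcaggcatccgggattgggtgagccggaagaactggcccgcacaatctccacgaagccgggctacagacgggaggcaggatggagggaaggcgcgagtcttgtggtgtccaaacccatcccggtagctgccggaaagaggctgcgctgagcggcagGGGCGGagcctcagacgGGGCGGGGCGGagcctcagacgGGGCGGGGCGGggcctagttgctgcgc
Adamts3 (chr5:89883285-89883584, minus strand): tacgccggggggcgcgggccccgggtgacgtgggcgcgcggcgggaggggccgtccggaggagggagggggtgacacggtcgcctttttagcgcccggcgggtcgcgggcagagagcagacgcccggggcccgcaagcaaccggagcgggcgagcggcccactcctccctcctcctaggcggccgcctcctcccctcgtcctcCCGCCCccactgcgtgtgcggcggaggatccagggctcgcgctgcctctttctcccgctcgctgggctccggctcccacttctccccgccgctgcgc

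The Timp1 promoter holds the AP-1 variant at base 27 after the start with an ETS match that begins at base 41. It also holds ETS matches at −175 and −99 and a GC box at −8. The AP-1 variant is in 2.68% of the 32851 promoters of the table and in Timp1 alone of the 40 genes. ETS matches are in 35.4% of all promoters and in 15 of the 40, among them Timp4, with 1 match. The GC box is in 35.7% of all promoters and in 27 of the 40. Adam15 holds 5, Mmp28 3, and Timp1 and the lower gene Adamts3 hold 1 each. TATAAA is in 13.6% of all promoters and the other AP-1 form in 7.81%. They are in 7 and 4 of the 40, and in 0 of the 7 that passed the threshold and have a sequence. A match is a description of these letters only.

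**Figure D3:**
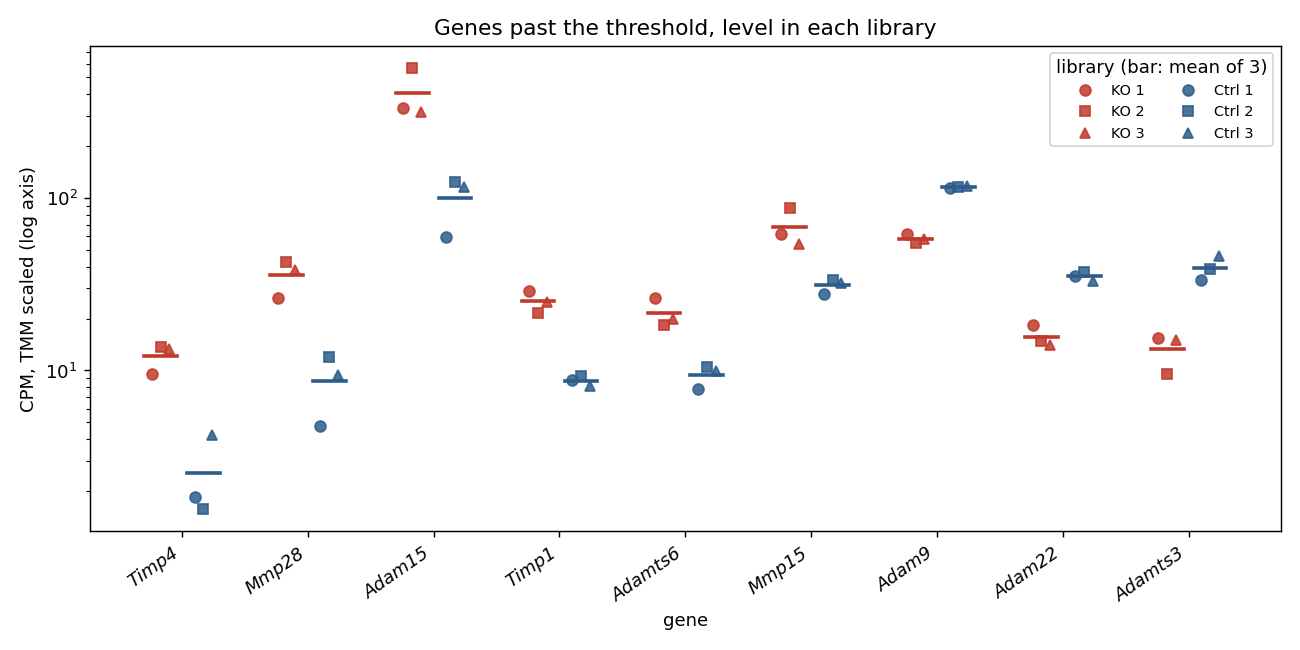
Level in CPM (log axis) of the 9 genes past the threshold in each library, with KO in red left of Ctrl in blue and a bar for the mean of 3. In each of the 9 genes the libraries of the groups do not overlap.

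Among the 9 membrane ADAM proteases, 7 were tested, Adam15 rose and Adam9 fell. Adam15, which carries an integrin-binding motif and is made by endothelium (NM_009614, chromosome 3, 89339640 to 89350028), was at 333, 567 and 316 CPM in KO 1, 2 and 3, against 59.6, 123 and 116 CPM in Ctrl 1, 2 and 3. Ctrl 1 was the lowest library, as it was for the endothelial markers. The mean was 406 ± 140 CPM in KO and 99.6 ± 34.8 CPM in Ctrl, 4.07-fold higher, with a log2 fold change of 2.03 (SE 0.376, edgeR adjusted p = 0.0233). With libraries scaled to equal endothelial markers it was 0.83 and did not pass (edgeR adjusted p = 0.0824).

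Adam9, a widely made sheddase that is needed for lasting cone-rod function in mouse and human (NM_001270996, chromosome 8, 24949611 to 25017040), was at 61.9, 54.8 and 57.5 CPM in KO 1, 2 and 3, against 113, 115 and 117 CPM in Ctrl 1, 2 and 3. Both groups were tight, and Ctrl was 1.98-fold higher than KO. The means were 58.1 ± 3.60 CPM in KO and 115 ± 1.58 CPM in Ctrl, a log2 fold change of −0.99 (SE 0.210, edgeR adjusted p = 0.0301). It was −0.70 with GC offsets and −2.22 with equal endothelial markers, and passed in both. With equal endothelial markers the all-gene median was −1.21, and 45.7% of all genes passed as lower. The photoreceptor markers, at a mean log2 fold change of −1.01, and the inner retinal neuron markers, at −0.64, were lower as well. The part of those cells in the value was not tested.

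Adam10, the sheddase of Notch receptors and of VE-cadherin, did not differ beyond its spread. It was at 386, 131 and 75.1 CPM in KO 1, 2 and 3 and at 80.6, 260 and 243 CPM in Ctrl 1, 2 and 3. The libraries of each group ran over a wide range, with KO 1 the highest and KO 3 the lowest of all 6. The log2 fold change was 0.02 (SE 0.640, edgeR adjusted p = 0.984), and −0.84 without KO 1. Adam17, which sheds TNF and EGF-family precursors, was at 88.7, 72.4 and 42.6 CPM in KO and at 37.8, 75.1 and 63.7 CPM in Ctrl. KO 1 was again the highest, and the log2 fold change was 0.21 (SE 0.359, edgeR adjusted p = 0.732). With equal endothelial markers it was −1.001 and passed as lower (edgeR adjusted p = 0.0431). At that scaling the all-gene median was −1.21, below Adam17, and 45.7% of all genes passed as lower. Adam17 shares bases with Iah1. Adam8, a sheddase of leukocytes, was low, at 2.78, 7.41 and 2.78 CPM in KO and 0.308, 2.06 and 1.37 CPM in Ctrl, and its log2 fold change of 1.80 (SE 0.757) did not pass (edgeR adjusted p = 0.154). Adam8 was highest in KO 2, as the microglial markers were, and within Ctrl both were highest in Ctrl 2. On the log2 scale these markers averaged 2.57, 9.22 and 6.77 in KO 1, 2 and 3. In Ctrl 1, 2 and 3 they averaged 6.12, 6.44 and 3.60. Adam8 was as high in KO 1, where the markers were lowest, as in KO 3. It was lowest in Ctrl 1, where the markers were not. The part of those cells in Adam8 was not tested.

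The 3 neuronal ADAMs without protease activity all had negative log2 fold changes, and Adam22 passed. Adam22, a receptor of LGI proteins at synapses (NM_001098225, chromosome 5, 8072347 to 8368312), was at 18.2, 14.7 and 14.1 CPM in KO 1, 2 and 3, against 35.5, 37.3 and 33.1 CPM in Ctrl 1, 2 and 3. Ctrl was 2.25-fold higher, with a log2 fold change of −1.17 (SE 0.254, edgeR adjusted p = 0.0312), and with GC offsets it was −0.77 and did not pass (edgeR adjusted p = 0.0614). Adam23, its relative, was at 5.88, 4.26 and 3.94 CPM in KO and 5.60, 5.74 and 7.69 CPM in Ctrl (−0.43, SE 0.366, edgeR adjusted p = 0.457). Adam11, named after its values were seen, had −0.66 (SE 0.468, edgeR adjusted p = 0.372). Markers of inner retinal neurons were also lower in KO, and 4 of the 14 tested fell and 0 rose. Their mean was 3.92, 3.98 and 4.42 log2(CPM + 0.5) in KO 1, 2 and 3 and 4.96, 4.77 and 4.79 in Ctrl 1, 2 and 3. Within the groups they did not follow Adam22. In KO their order was the reverse of that of Adam22, and Ctrl 2 had the highest Adam22 and the lowest marker mean of Ctrl. Of the 8 retinal ganglion cell markers 2 rose and 0 fell, at a mean log2 fold change of 0.80. The part of either cell type was not tested.

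Of the 10 ADAM genes known mainly from testis or epididymis, 4 passed the filter and 0 passed the test (edgeR, with 1 at an unadjusted p below 0.05 and 1 by DESeq2). That gene, named after its values were seen, was Adam3, a sperm surface protein. It was at 1.53, 1.55 and 1.65 CPM in KO and 0.308, 0.536 and 0.326 CPM in Ctrl, from 5 to 48 counts, with a log2 fold change of 2.00 (SE 0.602, edgeR adjusted p = 0.0691), and passed with GC offsets (edgeR adjusted p = 0.0418). Adam3, Adam5, Adam18, Adam32 and Adam9 lie together on chromosome 8 between 24602246 and 25017040. In that run Adam9 fell, while Adam32 (−1.75, edgeR adjusted p = 0.193) and Adam3 did not pass, and Adam5 and Adam18 were not tested.

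Among the 18 tested ADAMTS proteases 1 rose and 1 fell. Of the 7 that cut hyalectans, the large proteoglycans such as versican, 7 were tested and 0 passed (edgeR, with 1 at an unadjusted p below 0.05 and 1 by DESeq2). Adamts1, an inhibitor of VEGF-driven vessel growth, was abundant and level, at 569, 594 and 423 CPM in KO 1, 2 and 3 and 534, 536 and 524 CPM in Ctrl 1, 2 and 3. The Ctrl libraries lay together (SD 6.58 CPM) and the KO libraries on both sides of them (SD 92.4 CPM), with a log2 fold change of −0.01 (SE 0.236, edgeR adjusted p = 0.986). This is near the median of all genes, while the endothelial markers were 1.23 higher. With equal endothelial markers it was −1.27 and passed as lower (edgeR adjusted p = 0.0166), next to an all-gene median of −1.21.

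Adamts9, a protease that also restrains vessel growth, was at 107, 25.3 and 29.3 CPM in KO 1, 2 and 3 and 9.77, 25.7 and 19.5 CPM in Ctrl 1, 2 and 3. KO 1 stood apart, KO 2 lay within the Ctrl range and KO 3 just above it. The log2 fold change of 1.56 (SE 0.613) did not pass (edgeR adjusted p = 0.133), was 0.65 without KO 1, and passed by DESeq2 (adjusted p = 0.0376). Adamts9 shares bases with 9530026P05Rik. Adamts4, a versican- and aggrecan-cleaving enzyme, was at 41.8, 51.3 and 31.3 CPM in KO and 22.0, 29.2 and 33.5 CPM in Ctrl (0.55, SE 0.293, edgeR adjusted p = 0.237). Adamts5, the other main aggrecanase, was at 7.10, 3.31 and 5.42 CPM in KO and 4.07, 5.36 and 4.69 CPM in Ctrl (0.16, SE 0.410, edgeR adjusted p = 0.817).

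Outside that group, Adamts6 rose and Adamts3 fell. Adamts6, which acts on matrix around fibrillin and heparan sulphate proteoglycans (NM_001081020, chromosome 13, 104286518 to 104496695), was at 26.3, 18.2 and 19.8 CPM in KO 1, 2 and 3, against 7.83, 10.5 and 9.97 CPM in Ctrl 1, 2 and 3. It was 2.28-fold higher, with a log2 fold change of 1.19 (SE 0.301, edgeR adjusted p = 0.0454), 1.63 with GC offsets and −0.02 with equal endothelial markers. Its call is near the threshold, and it was lost without the filter on low counts.

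Adamts3, a procollagen N-proteinase that also starts the activation of VEGF-C (NM_001081401, chromosome 5, 89673841 to 89883668), was at 15.5, 9.52 and 15.05 CPM in KO 1, 2 and 3, against 33.6, 38.6 and 46.1 CPM in Ctrl 1, 2 and 3. Each KO library lay below each Ctrl library. The means were 13.4 ± 3.34 CPM in KO and 39.4 ± 6.30 CPM in Ctrl, 2.95-fold higher in Ctrl, with a log2 fold change of −1.56 (SE 0.302, edgeR adjusted p = 0.0241). With GC offsets it was −1.55 (edgeR adjusted p = 0.0200) and with equal endothelial markers −2.74 (edgeR adjusted p = 0.00239). The latter stands next to an all-gene median of −1.21, where 45.7% of all genes passed as lower. Of its relatives, Adamts2 had 0.84 (SE 0.741, edgeR adjusted p = 0.476) and Adamts14 was not tested, both named after their values were seen.

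Adamts13, the protease that trims von Willebrand factor, was near the limit of counting at 0.980, 1.83 and 1.06 CPM in KO and 1.57, 0.330 and 0.521 CPM in Ctrl (0.66, SE 0.743, edgeR adjusted p = 0.585). Ctrl 1 was the highest of its group, and the log2 fold change was 1.60 without Ctrl 1 and 0.28 without Ctrl 2, without passing in either. Its substrate Vwf was at 358, 497 and 223 CPM in KO and 150, 153 and 191 CPM in Ctrl, without passing (1.12, SE 0.324, edgeR adjusted p = 0.0623). Vwf passed by DESeq2 (adjusted p = 0.0144), and its groups did not overlap. Adamts10, a fibrillin-binding enzyme, was at 43.0, 68.9 and 49.2 CPM in KO and 50.0, 37.8 and 33.9 CPM in Ctrl (0.40, SE 0.282, edgeR adjusted p = 0.366), and −0.05 with GC offsets.

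Among the ADAMTS-like genes 4 of 5 were tested and 0 passed (edgeR, with 2 at an unadjusted p below 0.05 and 1 by DESeq2). Adamtsl2, a matrix protein that binds fibrillin and TGF-beta-binding proteins, came nearest. It was at 46.5, 92.2 and 42.0 CPM in KO 1, 2 and 3, against 11.3, 26.6 and 23.1 CPM in Ctrl 1, 2 and 3. The groups did not overlap, and the log2 fold change was 1.57 (SE 0.434, edgeR adjusted p = 0.0566), passing by DESeq2 (adjusted p = 0.00596). Adamtsl3, named after its values were seen, was low and went the other way (−1.98, SE 0.713, edgeR adjusted p = 0.108), at 0.206 to 0.392 CPM in KO and 0.578 to 1.57 CPM in Ctrl.

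Among the 17 MMP genes 11 were tested, 2 rose and 0 fell. Of the 6 membrane-type MMPs Mmp15 passed. Mmp15, an MT-MMP of epithelia and endothelium (NM_008609, chromosome 8, 95352296 to 95374293), was at 61.5, 87.5 and 54.0 CPM in KO 1, 2 and 3, against 27.6, 33.5 and 32.2 CPM in Ctrl 1, 2 and 3. The mean was 67.7 ± 17.6 CPM in KO and 31.1 ± 3.08 CPM in Ctrl, with a log2 fold change of 1.12 (SE 0.267, edgeR adjusted p = 0.0389). It was 0.61 with GC offsets (edgeR adjusted p = 0.175) and −0.13 with equal endothelial markers, and passed in neither.

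Mmp14, the MT1-MMP that activates Mmp2 and is used by sprouting cells to cross matrix, was at 239, 257 and 155 CPM in KO 1, 2 and 3, against 99.4, 121 and 135 CPM in Ctrl 1, 2 and 3. The groups did not overlap, although KO 3 lay close to Ctrl 3. The log2 fold change of 0.87 (SE 0.273) did not pass (edgeR adjusted p = 0.0763), passed by DESeq2 (adjusted p = 0.0315), and was −0.37 with equal endothelial markers. Mmp25, a leukocyte MT-MMP named after its values were seen, was at 22.5, 47.2 and 22.5 CPM in KO and 12.2, 17.5 and 16.2 CPM in Ctrl (1.00, SE 0.372, edgeR adjusted p = 0.116).

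Mmp28, a secreted protease also called epilysin (NM_001320300, chromosome 11, 83440768 to 83463040), was at 26.4, 42.6 and 38.4 CPM in KO 1, 2 and 3, against 4.75, 11.97 and 9.38 CPM in Ctrl 1, 2 and 3. Each KO library lay above each Ctrl library, and Ctrl 1 was the lowest. The mean was 35.8 ± 8.41 CPM in KO and 8.70 ± 3.66 CPM in Ctrl, 4.11-fold higher, with a log2 fold change of 2.04 (SE 0.403, edgeR adjusted p = 0.0251). It was 1.45 with GC offsets (edgeR adjusted p = 0.0527) and 0.90 with equal endothelial markers (edgeR adjusted p = 0.0946). Its span shares bases with 1700020L24Rik.

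The gelatinases, which cut basement membrane collagen, did not pass the test or were not tested. Mmp2 was at 20.8, 33.3 and 30.3 CPM in KO 1, 2 and 3 and 48.8, 34.7 and 29.2 CPM in Ctrl 1, 2 and 3, with a log2 fold change of −0.42 (SE 0.308, edgeR adjusted p = 0.392). The groups overlapped, with Ctrl 1 highest. Mmp9 was near 0, at 0.0392, 0.916 and 0.171 CPM in KO and 0.239, 0.0825 and 0.391 CPM in Ctrl, from 1 to 23 counts, and was not tested. Mmp12, the macrophage elastase, and Mmp8, the neutrophil collagenase, were named after their values were seen. Mmp12 was at 2.51, 2.95 and 1.99 CPM in KO and at 0, 0.619 and 0 CPM in Ctrl, and did not pass (edgeR adjusted p = 0.111). It passed by DESeq2 (adjusted p = 0.0169) and by limma-voom. The microglial markers averaged 2.57, 9.22 and 6.77 log2(CPM + 0.5) in KO 1, 2 and 3 and 6.12, 6.44 and 3.60 in Ctrl 1, 2 and 3, and the part of such cells in Mmp12 was not tested. Mmp8 had 29, 0 and 3 counts in KO 1, 2 and 3 and 0 in each Ctrl library. The 6 neutrophil markers with an entry, of which 1 passed the filter on low counts, were in sum also highest in KO 1. Their sum was 28.7 CPM there, against 1.67 and 1.85 CPM in KO 2 and 3 and 0.717 to 1.61 CPM in Ctrl. The part of neutrophils in Mmp8 was not tested.

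**Figure D4:**
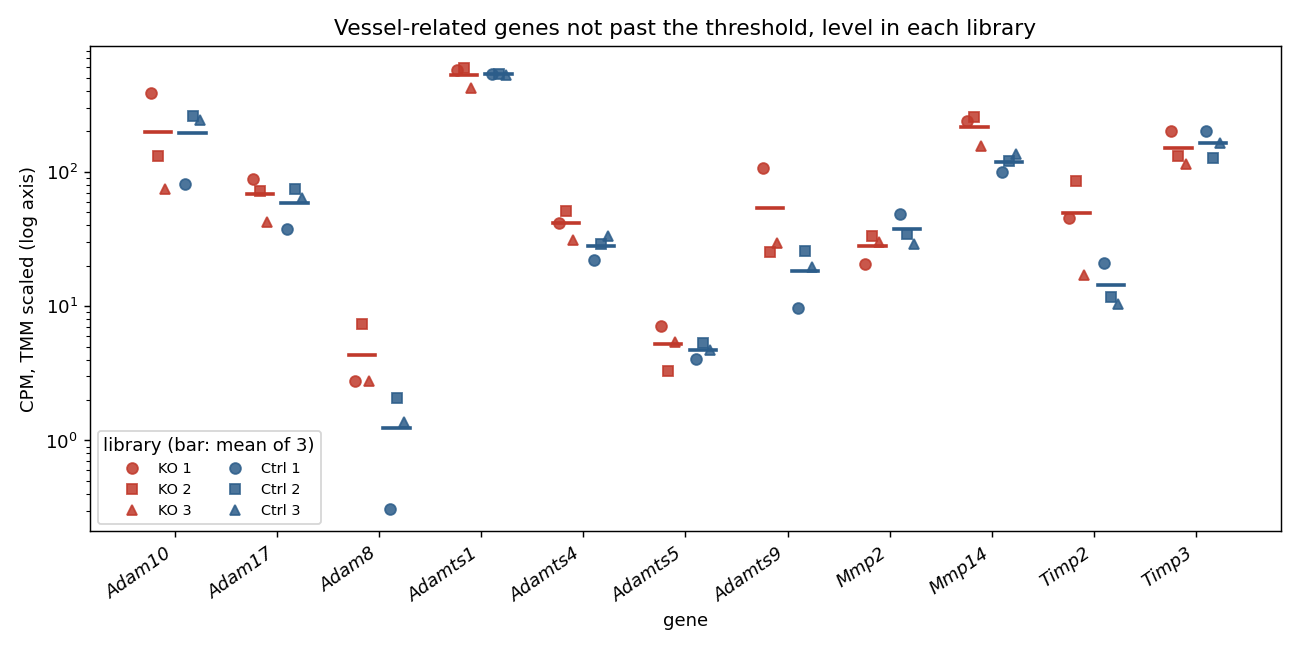
Level in CPM (log axis) of 11 vessel-related genes that did not pass the threshold, in each library, with KO in red left of Ctrl in blue and a bar for the mean of 3. KO 1 is the highest of all libraries for Adam10 and Adamts9, and the 3 Ctrl libraries of Adamts1 lie together.

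Levels can be compared between genes only per length. Per kilobase of transcript in GENCODE M21, Adam15 was the highest of the families in KO at 145 CPM per kilobase, followed by Adamts1 at 108 and Mmp14 at 83.6. The KO libraries of neighbours in this order overlap, at 113 to 203 for Adam15, 86.6 to 122 for Adamts1 and 59.9 to 98.8 CPM per kilobase for Mmp14. The order rests on transcript length, although counts may include intronic reads. In Ctrl the order was Adamts1 at 109, Mmp14 at 45.7, Adam10 at 42.3, Adam15 at 35.6 and Timp3 at 34.9 CPM per kilobase, and from Mmp14 to Timp3 the libraries of neighbours overlap in CPM per kilobase. The 16 untested genes reached at most 1.71 CPM in any library.

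Of 24 activators and regulators 22 were tested, 6 rose (27.3%, against 5.85% of all genes) and 0 fell (against 4.44% of all genes), at a median log2 fold change of 0.83, against 0.03 over all genes. With equal endothelial markers 0 of the 6 passed, at 0.06 to 0.30 (edgeR adjusted p from 0.561 to 0.903), and with GC offsets 3 of the 6 passed, while Rhbdf1, Frmd8 and Pcsk6 did not. Rhbdf1 and Frmd8, which escort Adam17 to the surface, rose by 1.43 (SE 0.306, edgeR adjusted p = 0.0302) and 1.34 (SE 0.330, edgeR adjusted p = 0.0424), as did Plaur, the urokinase receptor (1.55, SE 0.364, edgeR adjusted p = 0.0376). Bsg, the MMP inducer basigin, and Pcsk6, a proprotein convertase, rose by 1.27 (SE 0.278) and 1.58 (SE 0.411). The furin protease Furin (0.67), the MMP inhibitor Reck (−0.23) and the Adam10 escorts Tspan5 (1.04), Tspan14 (0.64) and Tspan15 (−0.11) did not pass (edgeR adjusted p from 0.0602 to 0.812). Of these, only Tspan5 passed by DESeq2 (adjusted p = 0.0128).

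Of 26 substrates and binding partners 24 were tested, 4 rose (16.7%, against 5.85% of all genes) and 0 fell (against 4.44% of all genes), at a median log2 fold change of 1.19, against 0.03 over all genes. With equal endothelial markers 0 of the 4 passed, at 0.07 to 0.91 (edgeR adjusted p from 0.0540 to 0.877), and with GC offsets all 4 passed. Cx3cl1, a membrane chemokine shed by Adam10 and Adam17, was at 82.8, 88.8 and 83.7 CPM in KO 1, 2 and 3, against 14.0, 26.4 and 26.6 CPM in Ctrl 1, 2 and 3 (1.93, SE 0.304, edgeR adjusted p = 0.0212). Hbegf, a growth factor precursor shed by ADAMs, rose by 1.29 (SE 0.242) and the TNF receptor Tnfrsf1a by 1.33 (SE 0.263). Bcan, the brain proteoglycan brevican and a target of Adamts4, rose by 2.10 (SE 0.319, edgeR adjusted p = 0.0212). Bcan is made by glia, and 4 of the 12 Müller glia and astrocyte markers rose and 0 fell (mean log2 fold change 0.68). These markers averaged 5.75, 6.48 and 6.16 log2(CPM + 0.5) in KO 1, 2 and 3. In Ctrl 1, 2 and 3 they averaged 5.16, 5.45 and 5.75. KO 1 and Ctrl 3 were thus level in these markers, while Bcan was at 72.4 CPM in KO 1 and 25.2 CPM in Ctrl 3. The part of glia in Bcan was not tested. Versican, Vcan, did not pass (0.82, SE 0.466, edgeR adjusted p = 0.267). The endothelial markers were also higher in KO, and the part of endothelial cells in both lists was not tested.

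How far the families moved depended on what the libraries were scaled to. With libraries scaled to equal endothelial markers, the median of all genes was −1.21 and that of the 51 genes −0.97, which placed the families 0.24 above all genes, against 0.36 with TMM scaling. At that scaling 0 of the 51 were higher, where 0.462% of all genes were, and 15 were lower, where 45.7% of all were (edgeR). Of the 51, 17 had an unadjusted p below 0.05, as did 8925 of all 16217 genes. Timp4 (1.09), Mmp28 (0.90), Adam15 (0.83) and Timp1 (0.29) kept a positive value without passing, Mmp15 and Adamts6 turned to −0.13 and −0.02, and Adamts3, Adam22 and Adam9 passed as lower.

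**Figure D5:**
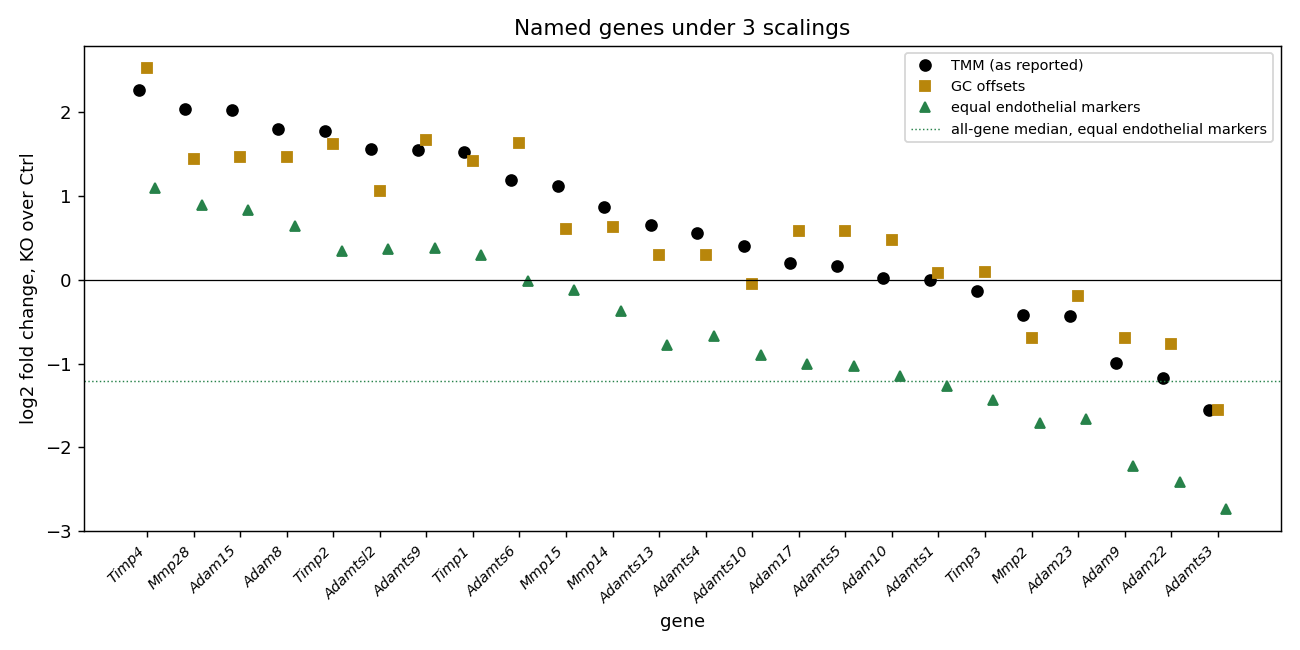
Log2 fold change of KO over Ctrl for the 24 named and tested genes (x axis) with TMM scaling (black), GC offsets (gold) and libraries scaled to equal endothelial markers (green). The dotted line is the median of all genes under the last (−1.21), above which Adamts1 and the genes to its right do not lie.

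The calls changed with the libraries included. Without Ctrl 1, Ctrl 2, Ctrl 3 or KO 2 in turn, 0 of them and 0 of all genes passed (edgeR). In these fits 13, 18, 13 and 13 genes of the families had an unadjusted p below 0.05. Of all genes, 4005 of 16533, 3434 of 16722, 3479 of 16710 and 3576 of 16554 had one. On all libraries DESeq2 and limma-voom called 16 and 10 of the families, and 22.1% and 11.8% of all genes. Without KO 1 all 9 passed, among 14 genes of the families, and 29.7% of all genes passed. Without KO 3, 4 of the families passed: Adam15, Adamts3, Timp1 and also Timp2, which did not pass on all libraries. In that fit 5.23% of all genes passed. Over the 6 fits the log2 fold changes of the 9 called genes ran from 0.91 to 2.83 for those that rose. They ran from −1.67 to −0.93 for those that fell. Their sign could not turn when a library was left out, because the groups do not overlap in any of the 9.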

How the data were processed

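RNA counts of 6 retinal CD31+ sorts were analysed. Per the labels' protocols, polyadenylated RNA was copied into full-length cDNA (SMART-Seq type), amplified, tagmented and read as single ends on a BGISEQ-500. Trimmomatic 0.36, STAR, DESeq2, edgeR, deepTools and the build mm10 are named, per the submitters' processing notes. The read counter is not given in the sources used here. Per the file headers, the authors deposited counts, normalized counts (a signal), RPKM, a log2 fold change, a Wald score, p-values and lengths. Only the counts and lengths were used. One Ctrl count column carries another number and was taken as Ctrl 3, the remaining library. The deposited length is within 1% of the genomic span for 55 of the 67 genes, so counts may include intronic reads, and CPM per kilobase of transcript is then too high. In all, 12 of the 67 genes (17.9%, against 28.2% of all) overlap another gene of the table.

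KO was compared with Ctrl by edgeR 4.0.16 (R 4.3.3): TMM, filterByExpr, quasi-likelihood test, no covariate, two-sided, Benjamini-Hochberg over 16217 genes. Levels are TMM-scaled CPM, and errors of log2 fold changes are the value over the square root of F. DESeq2 1.42.0, limma 3.58.1, GC offsets from GENCODE M21 transcripts, scaling to 15 endothelial markers and fits without each library were alternatives. Coordinates and promoters are RefSeq's, GRCm38.p6, 1-based. The fit was tested on simulated data. Each library is a different pup. The genes, lists and tests were chosen with earlier results of these data known. Named genes are those past the threshold, 19 tied to vessels and the 10 with the highest mean CPM, and pathway genes past the threshold. A pathway gene that passed is not reported by name here.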

Additional observations from a re-analysis of the deposited data

How the results depend on the processing

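In all, 14 alternatives were run. DESeq2 size factors, limma-voom and the entry with the highest counts left all 9 calls in place. With equal endothelial markers 75 genes were higher and 7416 lower, 0 genes of the families were higher and 15 lower, 6 pathway genes passed (1 higher and 5 lower, 0 of them among the 10 that rose with TMM scaling), and the family median was −0.972 (all genes −1.21). There Rnf20 passed at −1.88, and Adam10 (−1.15), Adam17 (−1.0), Adamts10 (−0.90), Adamts13 (−0.77), Adamts4 (−0.67), Adamts5 (−1.03), Adamts6 (−0.02), Mmp14 (−0.37) and Mmp15 (−0.13) reversed. The DESeq2 test called 2027 higher and 1529 lower genes, 13 higher genes of the families and 19 pathway genes. Adamts1 was 0.03 by DESeq2 and with its size factors and 0.08 with GC offsets, where Adamts10 was −0.05 and Timp3 0.09. Adam10 was −0.14 by limma-voom. GC offsets kept 6 of the 9, losing Adam22, Mmp15 and Mmp28 and adding Adam3, and no filter kept 8, losing Adamts6.

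Deviations of same-numbered libraries from their group means correlated at −0.394, 0.0727 and −0.264. Those of libraries with unlike numbers correlated at −0.326 to 0.415. With 3 libraries a group, these values cannot decide whether the replicate numbers mark pairs. With the replicate number as a block 1 gene was higher, 0 were lower, 0 of the families and 0 pathway genes passed (edgeR), and Adam10 was −0.26. In that fit 16 of the families had an unadjusted p below 0.05, as did 3407 of all 16217 genes. Without the block DESeq2 called 16 of the families and limma-voom 10, where 22.1% and 11.8% of all genes were called. Leaving out a library gave 0 to 2520 higher and 0 to 2407 lower genes, 0 to 10 higher and 0 to 4 lower of the families, 0 to 23 pathway genes, a family median of 0.309 to 0.571, and −0.75 to −0.58 for Rnf20, which passed at −0.71 without KO 1. Adam10 then ran from −0.84 to 0.44, Adam17 from −0.04 to 0.50, Adamts1 from −0.08 to 0.18, Adamts5 from −0.04 to 0.43 and Timp3 from −0.35 to 0.06. The causes were not tested. Shallow counts limit Mmp9, Mmp8, Mmp12 and Adamts13.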
